A study of Mus musculus with 18 samples.

Results

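The genes of 10 collagen chains of the dermis were followed through single-cell RNA data from the skin of mice that had, or had not, received an expander under the back skin. The genes, which were chosen by symbol and found once each in all 10 messenger RNA libraries, are Col1a1, Col1a2, Col3a1, Col5a1, Col5a2, Col6a1, Col6a3, Col12a1, Col14a1 and Col23a1. They are 10 of the 32285 genes of each matrix and 10 of its 44 genes with a symbol of the form used for collagen chains. In fibroblast-like cells, 7 of the 10 genes fell with expansion and 2 rose, in a test that called 32.3% of all genes, and Col6a3 did not pass. The 10 genes were chosen with earlier results of these data known, so their share of calls is no test of collagens as a group.

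Every mouse of the study had surgery, in which the back was cut near the tail and a passage was opened below the skin as far as the neck. In expanded mice a hydrogel expander was then placed near the neck and held by stitches, while control mice got none, so both groups carry a healing incision and a dissected passage. Skin was digested after 1, 2 or 4 days, and cells negative for the dye DAPI, which enters dead cells, were sorted and counted with a droplet 3′ assay. Each library pooled the mice of one arm and one sequencing round, with 5 control and 5 expanded libraries: 2 of each arm on day 1 (rounds 1 and 2), 2 of each on day 2 (rounds 1 and 2) and 1 of each on day 4. Strain, genotype and age of the mice are not given in the sources used here. Because each library is a pool of mice, the p-values below measure the spread between pools.

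The libraries held 17726739 to 75470722 unique molecular identifiers (UMIs, one for each captured RNA molecule) of genes, and 45488 cells were analysed. Of these, 16443 were fibroblast-like, named by markers that include none of the 10 genes, and the 10 genes were also left out of the clustering. Fibroblast-like cells made up 31% to 59.9% of the cells of a control library and 13% to 38.2% of those of an expanded one. Their median depth was 7437.5 to 13388.5 UMIs in control and 9514 to 15085 UMIs in expanded libraries. No library shared more than 0.413% of its cell barcodes with another.

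Collagens are triple helices that fibroblasts assemble in the endoplasmic reticulum, secrete and crosslink into fibres. Types I, III and V form the banded fibrils that give the dermis its tensile strength. Type I, built of chains from Col1a1 and Col1a2, is the bulk of it, type III is prominent in young and healing skin, and type V sits in the core of fibrils and sets their diameter. Type VI makes beaded microfilaments around cells and basement membranes. Types XII and XIV are FACIT collagens, which lie on the surface of fibrils and link them to their surroundings, and type XII is known for tissues under mechanical load. Type XXIII is a transmembrane collagen whose ectodomain can be shed.

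In the GENCODE annotation of the GRCm38 (mm10) build, the genes of the fibril chains lie at Col1a1 (ENSMUSG00000001506, chr11:94936224-94953042, + strand), Col1a2 (ENSMUSG00000029661, chr6:4504814-4541544, + strand), Col3a1 (ENSMUSG00000026043, chr1:45311538-45349706, + strand), Col5a1 (ENSMUSG00000026837, chr2:27886425-28039514, + strand) and Col5a2 (ENSMUSG00000026042, chr1:45374321-45503282, - strand). Col3a1 and Col5a2 are thus neighbours on chromosome 1, on opposite strands. Those of type VI are Col6a1 (ENSMUSG00000001119, chr10:76708792-76726168, - strand) and Col6a3 (ENSMUSG00000048126, chr1:90765923-90843971, - strand), and the others are Col12a1 (ENSMUSG00000032332, chr9:79598991-79718831, - strand), Col14a1 (ENSMUSG00000022371, chr15:55307750-55520803, + strand) and Col23a1 (ENSMUSG00000063564, chr11:51289920-51583918, + strand). The annotation tags Col1a2, Col5a2 and Col6a3 as overlapping another locus, and whether counting used the strand is not given in the sources used here, so reads of the overlapping gene cannot be told apart from theirs.

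The 250 bases before the transcription start were matched in RefSeq for 6 of the 10 genes (GRCm38.p6). They were searched on both strands for 5 motifs, none of which contains another. These were the CCAAT box, the GC box GGGCGG, the TATA box TATAAA, the AP-1 site TGAGTCA and the palindromic SMAD element GTCTAGAC. Shown are 3 promoters of fibril chain genes that fell together and that of Col23a1, which rose, with the matches in capitals, 5′ to 3′ on the strand of the gene.
Col1a2 (chr6:4505368-4505617, + strand): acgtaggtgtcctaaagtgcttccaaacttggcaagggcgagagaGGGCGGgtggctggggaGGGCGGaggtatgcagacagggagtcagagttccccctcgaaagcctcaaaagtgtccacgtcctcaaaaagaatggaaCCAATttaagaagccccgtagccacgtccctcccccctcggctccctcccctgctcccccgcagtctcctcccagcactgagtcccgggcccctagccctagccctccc
Col3a1 (chr1:45311288-45311537, + strand): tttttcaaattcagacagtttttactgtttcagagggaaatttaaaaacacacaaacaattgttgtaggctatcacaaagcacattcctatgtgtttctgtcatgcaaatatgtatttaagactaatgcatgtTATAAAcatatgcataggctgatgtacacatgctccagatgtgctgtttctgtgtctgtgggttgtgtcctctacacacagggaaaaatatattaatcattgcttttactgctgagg
Col5a1 (chr2:27886175-27886424, + strand): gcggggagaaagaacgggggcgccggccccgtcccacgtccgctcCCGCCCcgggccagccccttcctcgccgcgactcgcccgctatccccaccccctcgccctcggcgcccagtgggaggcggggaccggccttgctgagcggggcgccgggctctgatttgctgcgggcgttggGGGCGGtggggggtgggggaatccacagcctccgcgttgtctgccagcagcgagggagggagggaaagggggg
Col23a1 (chr11:51289670-51289919, + strand): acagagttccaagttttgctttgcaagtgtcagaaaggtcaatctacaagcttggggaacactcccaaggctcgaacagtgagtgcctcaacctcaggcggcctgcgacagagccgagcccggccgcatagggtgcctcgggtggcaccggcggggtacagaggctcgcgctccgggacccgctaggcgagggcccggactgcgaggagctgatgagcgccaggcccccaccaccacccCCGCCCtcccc
Col1a2 had 1 CCAAT box and 2 GC boxes, Col5a1 had 2 GC boxes, Col23a1 had 1 GC box, and Col3a1 had 1 TATA box only. Col6a1 had 1 AP-1 site, and the window of Col6a3 held none of the letters searched. Among all 32851 promoters of this length, 33.85% held the CCAAT box, 32.74% the GC box, 12.37% the TATA box, 4.463% the AP-1 site and 0.1674% the SMAD element. No motif was common to all 3 fibril promoters, while the GC box was shared by Col1a2 and Col5a1. A match describes letters, not a factor's binding. The window of Col1a2 lies inside the gene's span in GENCODE, and that of Col6a1 lies partly inside, so these starts differ between the annotations.

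The main comparison asked how expansion changed each gene in fibroblast-like cells, on UMIs summed per library and given as UMIs of the gene relative to all UMIs of these cells (CPM). Where a day has 2 values for an arm, they are those of rounds 1 and 2 in that order. The genes of type I collagen had the largest decreases of the fibril genes. Levels of Col1a1 in control libraries were 59599.8 and 32496 CPM on day 1, 36574 and 14522 on day 2, and 31508 on day 4, and in expanded libraries 19271 and 9567 CPM on day 1, 6081 and 4024 on day 2, and 7431 on day 4. Each expanded library was below the control of its own day and round, although the expanded library of day 1, round 1, was above the control library of day 2, round 2, so the groups overlapped. The log2 fold change was -2.27 with an SE of 0.33 (edgeR adjusted p 0.000706), a 4.84-fold decrease. On average Col1a1 had 34939.8 ± 16166 CPM (SD, n = 5) in control and 9275 ± 5941 CPM (SD, n = 5) in expanded libraries, and Col1a2, the other chain of type I, had 36598 ± 18138 CPM (SD, n = 5) and 9721 ± 7097 CPM (SD, n = 5). The log2 fold change of Col1a2 was -2.29 (SE 0.33, edgeR adjusted p 0.000711), with the same overlap. Both chains stayed close in every library, with a ratio of Col1a1 to Col1a2 between 0.854 and 1.16. A 3′ UMI count does not grow with transcript length, so these CPM compare numbers of captured molecules between genes.

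Col3a1, the chain of type III, was at 30139 and 19529 CPM on day 1, 19951 and 14109.9 on day 2, and 25528 on day 4 in control libraries and at 12517 and 7631 CPM on day 1, 6279 and 5077 on day 2, and 6798 on day 4 in expanded ones. No expanded library reached the lowest control. It fell 3.43-fold (log2 fold change -1.78 with SE 0.22, edgeR adjusted p 0.000356). The ratio of Col1a1 to Col3a1 molecules was 1.98 and 1.66 on day 1, 1.83 and 1.03 on day 2 and 1.23 on day 4 in control libraries. In expanded libraries the ratio was 1.54 and 1.25, then 0.969 and 0.793, and 1.09 on day 4, lower than the paired control in each of the 5 pairs. The difference in this ratio was not tested.

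**Figure D1:**
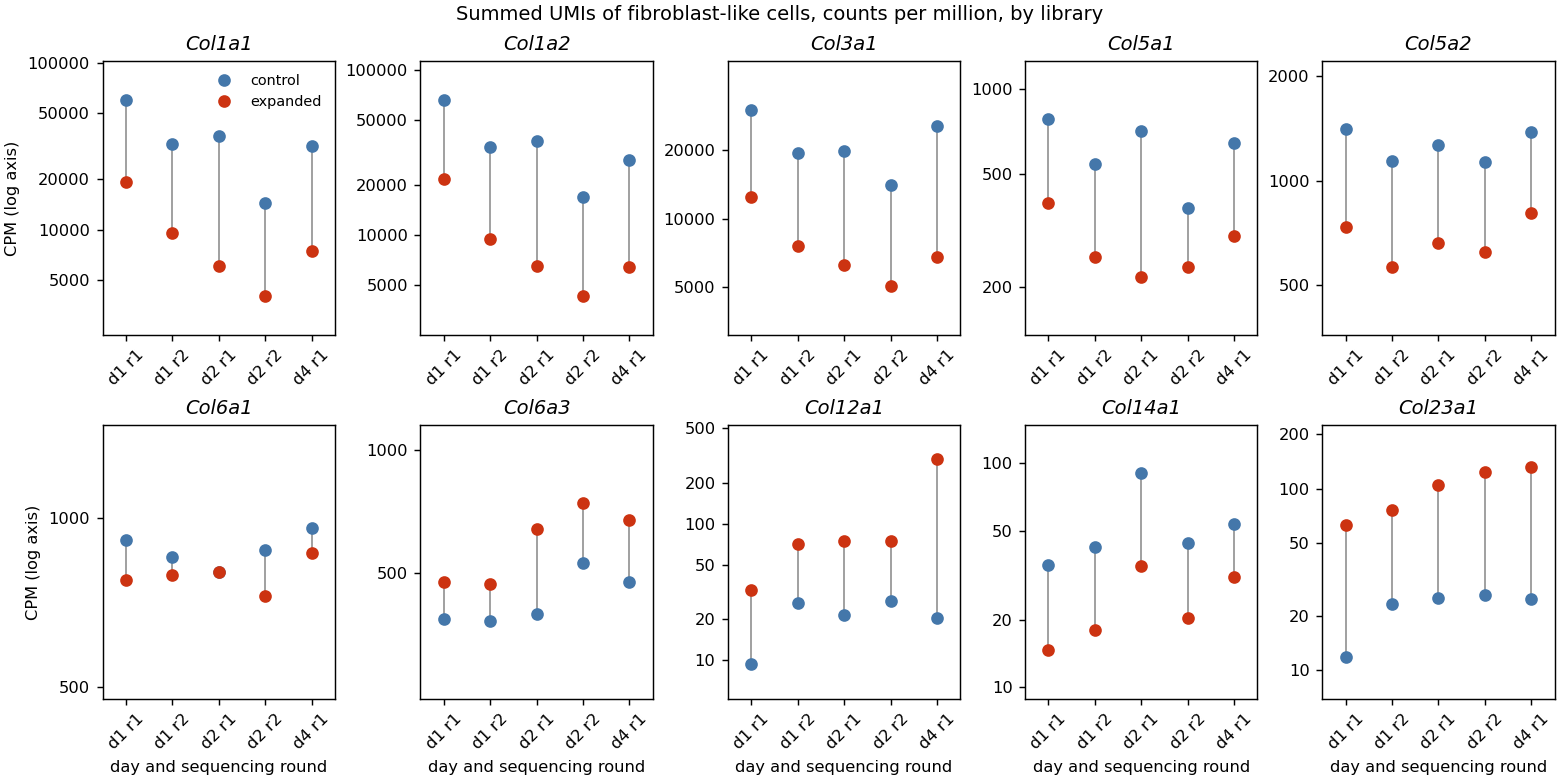
Level of each of the 10 collagen genes in fibroblast-like cells of each library (CPM, log axis), by day and arm, with 1 dot per library. The fibril genes lie lower in expanded libraries of every pair, Col12a1 and Col23a1 lie higher, and Col12a1 of the expanded day 4 library stands at 296 CPM.

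Type V chains fell as well. Col5a2 stood at 1409 and 1137 CPM on day 1, 1263 and 1128 on day 2, and 1383 on day 4 in control libraries, against 733 and 564 CPM on day 1, 662 and 624 on day 2, and 807 on day 4 with expansion. Control and expanded values did not overlap, and the control libraries were close to each other (1264 ± 132 CPM, SD, n = 5). The decrease was 2.20-fold (log2 fold change -1.14 with SE 0.14, edgeR adjusted p 0.000332). Col5a1 ranged over 379 to 785 CPM in control and 216 to 394 CPM in expanded libraries, with 1 expanded library above the lowest control. It fell 2.61-fold (log2 fold change -1.38 with SE 0.21, edgeR adjusted p 0.000873), and the ratio of Col5a1 to Col5a2 stayed between 0.336 and 0.560 in control and between 0.327 and 0.537 in expanded libraries.

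The type VI genes changed little and not together. Col6a1 was at 913 and 852 CPM on day 1, 799 and 876 on day 2, and 959.9 on day 4, in control libraries, and at 776 and 790.2 CPM on day 1, 799.6 and 725 on day 2, and 864 on day 4 in expanded libraries. The groups overlapped and 1 of 5 pairs was higher with expansion. It was called lower by 1.31-fold (log2 fold change -0.38 with SE 0.11, edgeR adjusted p 0.0176), and the call was lost without the control library of day 4 (adjusted p 0.0584) or the expanded library of day 4 (adjusted p 0.0620), with scaling by total counts alone (log2 fold change -0.15, adjusted p 0.265) and in fibroblast subsets 2, 3 and 4 only, which are described below (-0.29, adjusted p 0.0561). Col6a3, the long chain of type VI, had 384 and 381 CPM on day 1, 396 and 529.5 on day 2, and 475 on day 4 in control libraries. In expanded libraries it had 474 and 469 CPM on day 1, 639 and 741 on day 2, and 672 on day 4, above the paired control in 5 of 5 pairs but with overlapping groups. Its log2 fold change of 0.22 with an SE of 0.12 (edgeR adjusted p 0.186) did not pass, whereas with scaling by total counts it did (0.45, adjusted p 0.0122). There were 0.421 to 0.604 molecules of Col6a3 for each of Col6a1 in control and 0.594 to 1.02 in expanded libraries.

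The FACIT and transmembrane genes were scarce and went in opposite directions. Col12a1 counted 9.36 and 26.5 CPM on day 1, 21.6 and 27.4 on day 2, and 20.5 on day 4 in control libraries and 32.7 and 71.1 CPM on day 1, 74.7 and 74.9 on day 2, and 296 on day 4 in expanded libraries. All expanded libraries were above all controls, and that of day 4 stood far above the other expanded ones. The sums behind these values held 218 to 760 UMIs in control and 289 to 1906 UMIs in expanded libraries. Col12a1 rose 3.47-fold (log2 fold change 1.79 with SE 0.38, edgeR adjusted p 0.00531), and without the expanded day 4 library it still passed, at a log2 fold change of 1.37.

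Col23a1 counted 11.8 and 23.2 CPM on day 1, 25.01 and 26.01 on day 2, and 24.7 on day 4, in control libraries, and at 63.2 and 76.8 CPM on day 1, 105 and 124 on day 2, and 133 on day 4 in expanded libraries. No expanded library came near the highest control, and the control of day 1, round 1, was the lowest of all. It rose 3.82-fold (log2 fold change 1.94 with SE 0.16, edgeR adjusted p 0.000115). Col14a1, the gene of the other FACIT collagen, stood at 35.3 and 42.1 CPM on day 1, 90.1 and 44.2 on day 2, and 53.4 on day 4, in control libraries, and at 14.6 and 18.1 CPM on day 1, 34.9 and 20.5 on day 2, and 31.1 on day 4 in expanded libraries. The groups just failed to overlap, at 35.3 CPM in the lowest control and 34.9 CPM in the highest expanded library. It fell 2.61-fold (log2 fold change -1.39 with SE 0.22, edgeR adjusted p 0.00101).

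In all, 9 of the 10 genes, which were chosen with earlier results of these data known, passed in fibroblast-like cells, 7 lower and 2 higher. The same test called 32.3% of the 14093 genes tested, 16.8% lower and 15.5% higher, with a median log2 fold change of 0.02 over all genes. Scaling by total counts moved that median to 0.25 and gave 4079 higher and 1294 lower genes in place of 2187 and 2366, with 6 of the collagen genes lower and 3 higher. Under each scaling, the fibril genes and Col14a1 were lower and Col12a1 and Col23a1 were higher. Without 2 small subsets led by immune or haemoglobin genes, a comparison added once the data had been seen, the counts were again 7 lower and 2 higher, with log2 fold changes of -2.27 for Col1a1 and 1.80 for Col12a1.

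Counts per cell give levels without a division by the cell's other RNA, and for Col6a1 the direction then differed. Col1a1 averaged 840.6, 246.2, 365.9, 154.0 and 328.9 UMIs per control fibroblast-like cell on day 1 (rounds 1 and 2), day 2 (rounds 1 and 2) and day 4. The expanded cells averaged 328.1, 99.4, 98.3, 49.0 and 112.1 UMIs. Col12a1 averaged 0.132 to 0.291 UMIs per control cell and 0.558, 0.738, 1.21, 0.912 and 4.46 UMIs per expanded cell in the same order, and Col23a1 0.166 to 0.276 against 0.798 to 2.00. Each of the 5 fibril genes was lower per cell in each of the 5 pairs and both scarce genes were higher, as was Col6a3, while the median depth of expanded cells was 12285 UMIs against 9808.5 UMIs in control cells. Col6a1, which was called lower by CPM, averaged 12.9, 6.45, 8.00, 9.29 and 10.02 UMIs per control cell and 13.2, 8.21, 12.9, 8.82 and 13.03 UMIs per expanded cell, and was thus higher per cell in 4 of 5 pairs.

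With every cell thinned to 2000 UMIs (655 control cells and 153 expanded cells were shallower and dropped), Col12a1 was seen in 3.10% of control and 10.1% of expanded fibroblast-like cells (means of libraries). The unthinned shares were 7.59% and 26.0%. Col23a1 was seen in 3.72% and 12.3% of thinned cells (11.6% and 31.5% unthinned), Col14a1 in 6.46% and 3.32% (15.5% and 8.78% unthinned), and Col1a1 in 98.5% and 88.8% (99.4% and 94.3% unthinned). In macrophage or monocyte-like cells, taken as cells that should lack these genes, the thinned shares were 0.0311% and 0.180% for Col12a1, 0.210% and 0.139% for Col23a1, and 0.324% and 0% for Col14a1. Those of Col1a1 were 41.0% and 4.35%, at median depths of 6220 UMIs in control and 11750.5 UMIs in expanded macrophages against 9808.5 and 12285 UMIs in fibroblasts. The share of cells with Col1a1 was thus high in a class that should lack it, while the shares of the 3 scarce genes were low there.

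Markers of some other cells moved with the arms within the fibroblast-like sums, while other lists were much alike in both arms. Among the latter, the 4 Langerhans markers summed to 130 to 182 CPM in control and 135 to 202 CPM in expanded libraries. The 7 pericyte markers summed to 183 to 268 and 181 to 292 CPM, and the 6 T cell markers to 7.55 to 29.8 and 6.74 to 32.0 CPM. The summed level of 6 natural killer or innate lymphoid markers was 4.27 to 12.8 CPM in control and 28.4 to 93.8 CPM in expanded libraries. Of these 6 markers, 1 was at 0 in all expanded libraries. The sum of 6 neutrophil markers was 0.687 to 3.41 and 3.22 to 110 CPM, and that of 6 basal keratinocyte markers 41.9 to 64.9 and 63.0 to 168 CPM. The 5 melanocyte markers were lower with expansion, at 8.04 to 27.6 CPM in control and 3.73 to 7.01 CPM in expanded libraries. The 6 dermal papilla markers summed to 18.1 to 53.2 CPM in control and 52.4 to 106 CPM in expanded libraries. The 4 erythroid markers ranged over 0.695 to 4711 CPM in control and 0.106 to 43968 CPM in expanded libraries, and the 8 fibroblast markers over 19002 to 28196 and 12636 to 17184 CPM. The part of these cells and markers in the collagen results was not tested.

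Time could be followed with few libraries. At day 1, with 2 libraries per arm, edgeR called 6.60% of 14862 genes for the arm, among them 4 of the collagen genes: Col3a1 (log2 fold change -1.64, adjusted p 0.0384), Col5a2 (-1.30, adjusted p 0.0254), Col14a1 (-1.56, adjusted p 0.0409) and Col23a1 (1.71, adjusted p 0.0180). At day 2, where 4.27% of genes were called, 5 of them were: Col1a1 (-2.49, edgeR adjusted p 0.0438), Col1a2 (-2.49, adjusted p 0.0441), Col3a1 (-1.72, adjusted p 0.0374), Col5a2 (-1.03, adjusted p 0.0466) and Col23a1 (2.04, adjusted p 0.0136). Day 4, with 1 library per arm and a spread taken from the other days, gave calls for 0.188% of genes and for none of these. These calls moved with the setting. With cells thinned to 2000 UMIs (7.17% of genes called on day 1), Col14a1 lost its call on day 1 (adjusted p 0.162), and Col1a1, Col1a2 and Col5a1 gained one (adjusted p 0.0132 to 0.0177). Single mice, told apart by hashing antibodies, were also taken as replicates (5.34% called on day 1). On day 1 only round 2 was hashed, so these mice share 1 library per arm, and their spread is not that between pools. Col14a1 (-0.56, edgeR adjusted p 0.789) and Col23a1 (1.37, adjusted p 0.104) were then not called on day 1, while Col1a1 and Col1a2 were (adjusted p 0.0189 and 0.00666). On day 2, Col5a1 gained a call under both settings (2.73% of genes called after thinning and 29.7% with mice), and Col6a1 (-0.55, adjusted p 0.00233) and Col12a1 (1.61, adjusted p 0.00839) gained one with mice. On day 4, thinning (1.16% of genes called) gave calls for Col3a1 (-2.40, adjusted p 0.0229), Col12a1 (3.21, adjusted p 0.00909) and Col23a1 (2.30, adjusted p 0.0178). With mice, which share 1 library per arm on that day, 22.1% of genes were called, among them the 5 fibril genes, Col12a1 and Col23a1 (adjusted p 1.5e-05 to 0.00202). The log2 fold change of Col12a1 was 1.26 (edgeR adjusted p 0.109) on day 1, 1.48 (adjusted p 0.0912) on day 2 and 3.57 (adjusted p 0.0728) on day 4.

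The difference of the arm effect between days was tested directly. It gave 0 calls among 14862 genes (0% called, 460 at an unadjusted p under 0.05, edgeR), and Col12a1 alone of the collagen genes had an unadjusted p under 0.05, at 0.0306. With the spread between mice in place of that between libraries, 3 genes were called (918 unadjusted). Among control libraries, 0 genes differed between days (0% called, 934 unadjusted). Among expanded libraries, 15 genes did (0.101% called, 2028 unadjusted), none of them a collagen followed here. Col12a1 had the smallest edgeR adjusted p of the 10 there, 0.164.

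Hashing antibodies, which tag the cells of each mouse before pooling, separated single mice in all but the first round of day 1. Mice with at least 20 fibroblast-like cells numbered 14 in the control and 13 in the expanded arm. Col1a1 had a lowest, median and highest level of 7166, 30111 and 48423 CPM over control mice and of 3934, 6944 and 11930 CPM over expanded mice. Col3a1 had 8514, 19226 and 28436 CPM against 3948, 6073 and 11285 CPM. Of the 13 expanded mice, 6 lay above the lowest control mouse for Col1a1 and 2 for Col3a1, and the median of the expanded mice was below the lowest control mouse for both genes.

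Over the same mice Col23a1 had a lowest, median and highest level of 10.8, 22.5 and 45.9 CPM in control and 32.6, 88.0 and 188 CPM in expanded mice. Col12a1 had 6.63, 20 and 67.3 CPM in control and 42.3, 107 and 301 CPM in expanded mice. On day 4 alone, Col12a1 ran from 14.8 to 20.8 CPM in 4 control mice and from 107 to 301 CPM in 4 expanded mice. Of these 4, 3 were at 244 CPM or more and 1, at 107 CPM, lay within the range of expanded mice of the other days (42.3 to 169.8 CPM). Col14a1 differed less by mouse, with medians of 19.5 and 12.3 CPM, and with mice as replicates its arm effect did not pass (log2 fold change -0.58, adjusted p 0.166).

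The hashed mice do not hold all cells, and levels differed between cells with and without a hashtag. In control libraries Col14a1 was at 16.3, 33.3, 19.1 and 20.9 CPM in fibroblasts assigned to a mouse (day 1, round 2, then day 2, rounds 1 and 2, then day 4) and at 48.3, 146, 85.4 and 121 CPM in those without a hashtag. In expanded libraries the values were 11.7, 27.8, 7.81 and 19.5 CPM with a hashtag and 20, 39.2, 34.8 and 50.2 CPM without. Col23a1 in the expanded library of day 2, round 2, was at 70.8 CPM with a hashtag and 185 CPM without, and Col12a1 in that of day 4 at 234 and 398 CPM, so the levels by mouse in these libraries leave out cells with more of the gene. Subsets 8, 9 and 11, the ones richest in Col14a1 (below), made up 2.93% to 6.65% of the assigned control fibroblasts and 12.1% to 23.3% of the unassigned ones. The part of this in the lost call was not tested.

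Fibroblast-like cells were divided into 13 subsets by a further clustering that again left out the 10 genes. They are called by number, with leading genes. Differences between subsets are given as levels without a test. Subsets 1 (3387 cells, led by Adamts4 and Sox11), 5 (1441, Rian and Klf2) and 8 (736, Cthrc1 and Il31ra) came almost wholly from control libraries, with 1.80%, 6.52% and 2.45% of cells from expanded ones. Subset 6 (1084 cells, Tnc, Fst, Mmp3 and Timp1) came to 81.6% from expanded libraries, and subsets 2 (2907, Coch, Fmod and Wif1), 3 (2282, Igfbp2, F13a1 and Wnt5a) and 10 (552, Spp1, Apod and Saa1) held both arms. Subsets 12 (68 cells) and 13 (30 cells) are led by immune and haemoglobin genes and are not described further.

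Type I collagen differed widely between subsets of control skin. Col1a1 was highest in subset 8 (58547 ± 13569 CPM, SD, n = 5) and subset 1 (54844 ± 16933 CPM, SD, n = 5), which did not differ beyond their spread. Subsets 5, 7 and 3 followed with 42196, 39713 and 32439.6 CPM, then subsets 4 and 9 with 16856 and 11488 CPM. The low end was held by subset 6 (9241 CPM, 2 control libraries), subset 2 (6105), subset 10 (4859.6) and subset 11 (3635, 3 control libraries). Col3a1 shared the top, with means of 30527, 30311 and 30205 CPM in subsets 1, 3 and 8, and only 2365 CPM in subset 2.

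The other genes had different peaks. Subset 11 (329 cells), led by Tnn, Hapln1 and Aqp1, had 3 markers of the papillary dermis. Subset 3, with far more Col1a1, had 3 of these as well, and subset 2 had 2. Subset 11 was the lowest in Col1a1 and the highest in both type VI genes, with 1882 CPM of Col6a1 and 1203 CPM of Col6a3 in control libraries. It also led in Col12a1 (192 ± 31.3 CPM, SD, n = 3) and Col14a1 (450.2 ± 123 CPM, SD, n = 3). Col14a1 was next highest in subsets 9 and 8 (355 and 139 CPM), and Col12a1 in subsets 9 and 2 (86.7 and 55.7 CPM). Col23a1 peaked in subset 3, at 74.8 CPM in control and 345 CPM in expanded libraries, against 111 and 107 CPM in subsets 11 and 6 of expanded skin.

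**Figure D2:**
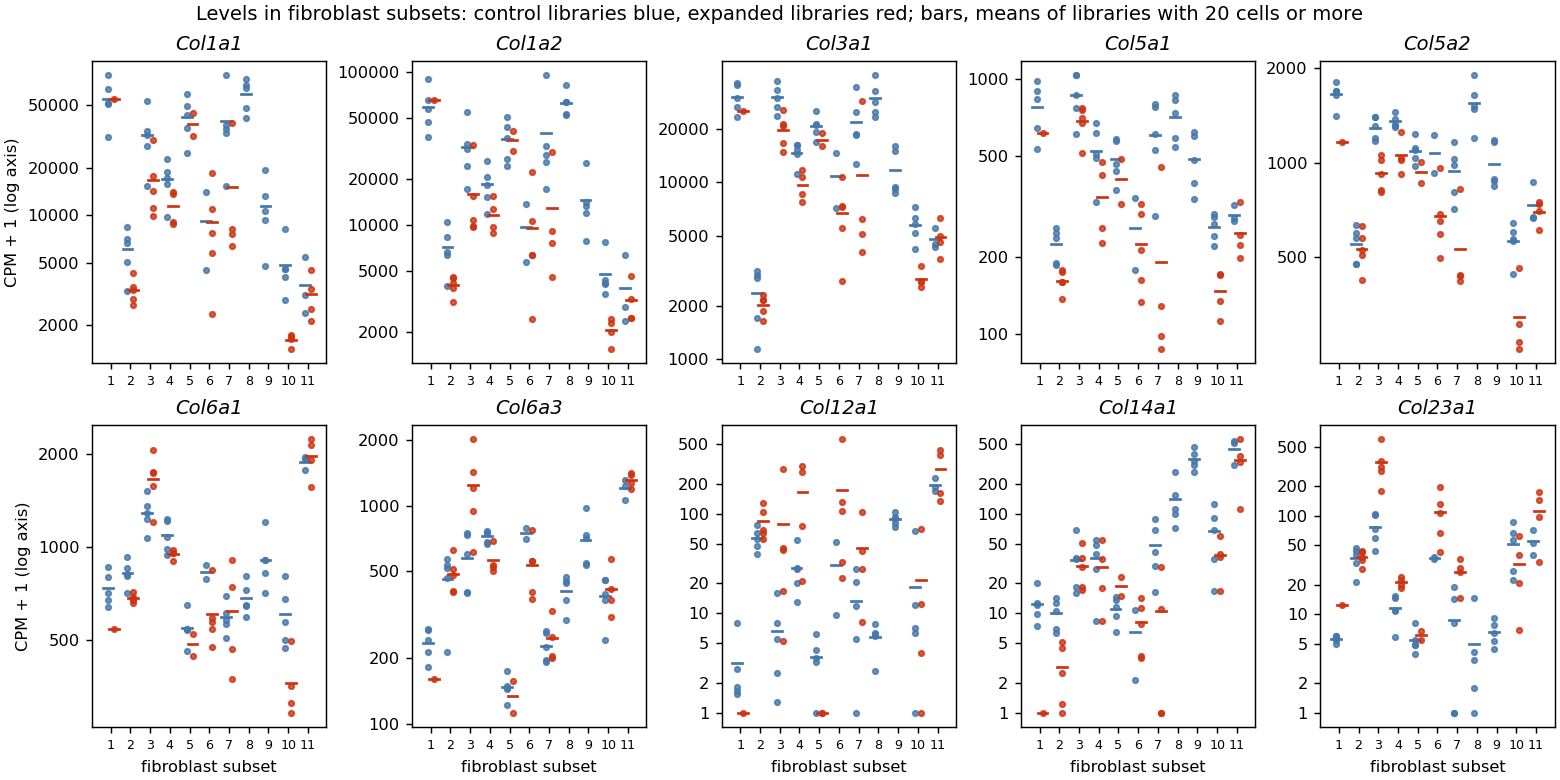
Level of each collagen gene in fibroblast subsets 1 to 11 (CPM + 1, log axis) by arm. Dots are libraries with at least 20 cells of the subset and bars are their means. Among control libraries Col1a1 and Col1a2 run highest in subsets 1 and 8, Col3a1 in subsets 1, 3 and 8, the type VI genes in subset 11 and Col23a1 in subset 3.

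Subset 3 held enough cells in every library to follow expansion within one kind of fibroblast, and there 4 genes fell and 2 rose where 13.3% of 10338 genes were called, 6.80% lower and 6.49% higher. Col1a1 was at 53123 and 32123 CPM on day 1, 34288 and 15207 on day 2, and 27458 on day 4, in control libraries, and at 30005 and 17779 CPM on day 1, 11109.6 and 9929 on day 2, and 14205 on day 4 in expanded libraries. Each expanded library was below its paired control, and the groups overlapped. The log2 fold change was -1.17 (edgeR adjusted p 0.00734), beside -1.28 for Col1a2 (adjusted p 0.00604), -0.76 for Col3a1 (adjusted p 0.0129) and -0.63 for Col5a2 (adjusted p 0.00934). Col23a1 was at 42.9 and 57.7 CPM on day 1, 102 and 100.04 on day 2, and 71.3 on day 4, in control libraries, and at 175 and 279 CPM on day 1, 312 and 599 on day 2, and 359 on day 4 in expanded libraries, with no overlap (log2 fold change 2.05, edgeR adjusted p 3.38e-05). Col6a3, which missed the threshold over all fibroblasts, rose in this subset.

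Levels of Col6a3 in subset 3 were 400.5 and 398 CPM on day 1, 735 and 751 on day 2, and 603 on day 4 in control libraries and 614 and 949.8 CPM on day 1, 1209.8 and 2034 on day 2, and 1432 on day 4 in expanded ones. All 5 pairs were higher with expansion while the groups overlapped through the expanded library of day 1, round 1 (log2 fold change 0.94, edgeR adjusted p 0.00248). Col12a1 had 2 to 86 UMIs per control sum of this subset and 16 to 218 UMIs per expanded sum, and its log2 fold change of 2.56 did not pass (edgeR adjusted p 0.0539). Leaving out single libraries gave 3 to 5 genes lower and 2 to 3 higher in subset 3.

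Subset 2 had 4 genes lower and 1 higher, where 9.97% of 10674 genes were called, 4.90% lower and 5.07% higher. Col1a1 stood at 8421 and 7048 CPM on day 1, 5061 and 3304 on day 2, and 6691 on day 4, in control libraries, and at 3374 and 3504 CPM on day 1, 2938 and 2699.8 on day 2, and 4307 on day 4 in expanded libraries, lower in each pair with overlapping groups. Its log2 fold change of -0.86 (edgeR adjusted p 0.00574) was accompanied by -0.81 for Col1a2 (adjusted p 0.00811), -0.50 for Col5a1 (adjusted p 0.0200) and -2.45 for Col14a1 (adjusted p 0.0242). The sums of Col14a1 here held only 11 to 48 UMIs in control and 0 to 14 UMIs in expanded libraries. Col12a1 was called higher at the edge of the threshold (log2 fold change 0.52, edgeR adjusted p 0.0488, 4 of 5 pairs), and this call held only when the expanded library of day 1, round 1, or the control library of day 2, round 2, was the one left out. Without the control library of day 1, round 2, 2 genes were lower.

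In subset 10, 5 genes fell where 6.51% of 5956 genes were called, 3.17% lower and 3.34% higher. They were Col1a1 (log2 fold change -1.62, edgeR adjusted p 0.000958), Col1a2 (-1.29, adjusted p 0.00343), Col3a1 (-1.06, adjusted p 0.00513), Col5a1 (-0.90, adjusted p 0.0141) and Col5a2 (-0.88, adjusted p 0.0186). Col1a1 had 2919, 4534, 4586, 4055 and 8203 CPM in the 5 control libraries and 1735, 1698, 1417 and 1633 CPM in the 4 expanded libraries with enough cells, without overlap. Without the expanded library of day 2, round 1, 3 genes were called. Subset 10 is low in Col1a1, as is subset 2, and Col1a1 was also counted in immune cells, with less in expanded libraries (below). After thinning, it was seen in 41.0% of control and 4.35% of expanded macrophage or monocyte-like cells (means of libraries). The part of such RNA in the falls within subsets 10 and 2 was not tested. In subset 7, shallow cells with a median of 1303 UMIs, 6.92% of 3064 genes were called (4.90% lower and 2.02% higher) and Col5a1 fell (log2 fold change -1.64, edgeR adjusted p 0.0319). That call count was 0 without any one of 6 libraries (the control libraries of day 1, round 1, day 2, round 1, and day 4, and the expanded libraries of day 2, rounds 1 and 2, and day 4), and 3 without the control library of day 1, round 2, or of day 2, round 2.

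Subsets 4 and 11 gave no call among the 10 genes. There edgeR called 0.388% of 8773 genes (0.171% lower and 0.217% higher) and 0.217% of 5524 genes (0.127% lower and 0.0905% higher). In subset 4 (2003 cells, led by Ccl19 and Cilp), Col3a1 had a log2 fold change of -0.71 (adjusted p 0.0784) and Col12a1 of 2.25 (adjusted p 0.0880). With the pair of day and round as a block, 4 genes were lower and 1 higher in subset 4, and 2 were lower in subset 11. Over all genes the block gave 234 calls in place of 34 in subset 4, and 78 in place of 12 in subset 11. Leaving out the expanded library of day 1, round 1, gave 1 lower and 1 higher gene in subset 4, and leaving out the control library of day 2, round 2, gave 1 lower gene.

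Subset 6 was not tested, since 2 control libraries had enough cells and 3 per arm were required. Col12a1 in its expanded libraries was 21.4 and 31.7 CPM on day 1, 105 and 129.8 on day 2, and 562 on day 4, and 50.6 CPM in round 2 of day 2 and 8.58 CPM on day 4 among the controls. Col23a1 was at 42.3 and 65.7 CPM on day 1, 106 and 129.8 on day 2, and 194 on day 4 in the expanded libraries of this subset. The expanded day 4 library was the highest for both genes.

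**Figure D3:**
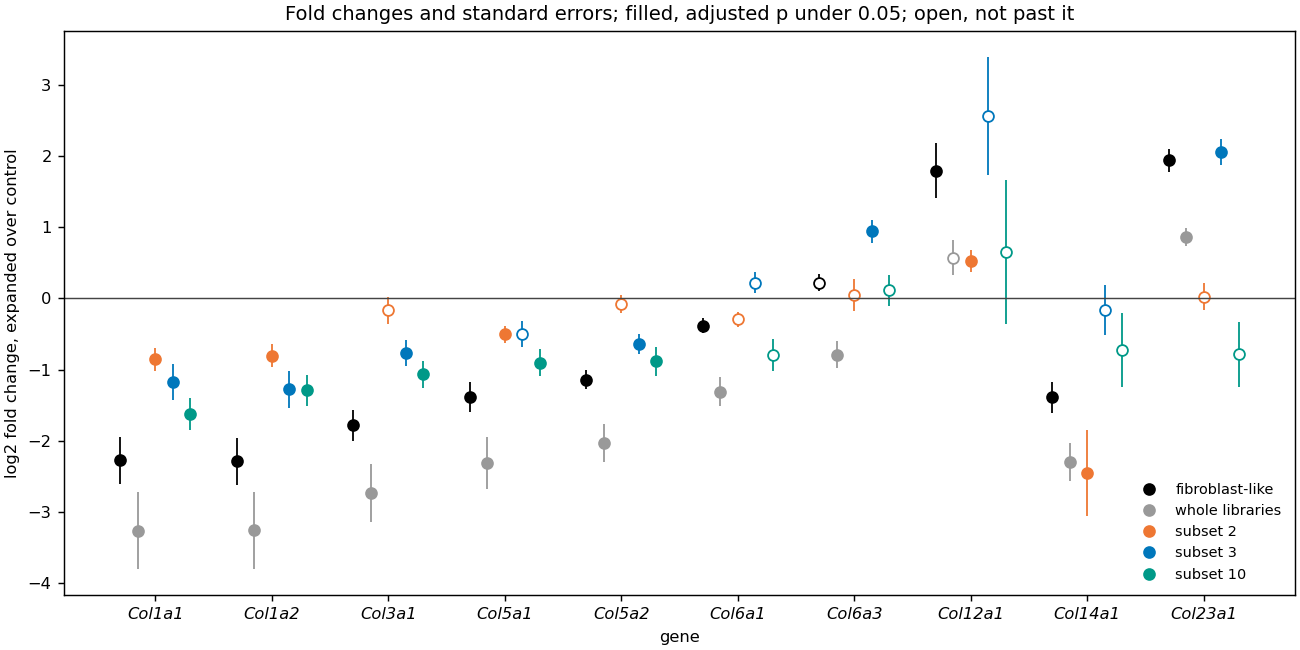
Log2 fold change, expanded over control, of each collagen gene with its standard error, in fibroblast-like cells, whole libraries and fibroblast subsets 2, 3 and 10. Filled symbols have an edgeR adjusted p under 0.05. The fibril genes lie furthest below 0 in whole libraries and nearer to it within subsets.

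The arm difference of each gene was split by arithmetic into a term for the mix of subsets and a term for levels within them. For the mix term, the control levels of the subsets were averaged with the subset shares of the paired expanded library. Subsets with fewer than 20 cells in the control library were kept in this term, so some of these control levels rest on few cells. Subset 6 was such a case in the control libraries of day 1, rounds 1 and 2, and of day 2, round 1. Averaged over the 5 pairs, the log2 difference of Col1a1 of -1.98 was made of -1.16 for the mix and -0.82 within subsets, and that of Col3a1 of -1.53 of -0.86 and -0.67. For the scarcer genes the terms differed widely between pairs, so that their averages give no order. Col12a1 had averages of 1.01 and 1.06, with the mix term running from 0.28 to 2.69 and the within term from -0.90 (day 2, round 1) to 3.08 (day 4). Col23a1 had 0.89 and 1.29, with 0.31 to 1.69 for the mix and 0.39 to 1.94 within subsets. Col14a1 had -0.44 and -0.71, from 0.55 and -1.82 in round 1 of day 1 to -1.28 and 0.17 in round 2 of day 2. For Col6a3 the average mix term was 0.44 of 0.46, with a within term from -0.23 to 0.36. The subsets were formed from genes that themselves differ between the arms, so where the line between both terms falls depends on the clustering. In subsets 2, 3 and 4 only, which both arms hold, 6 genes were lower, where 10.2% of genes tested were, and 2 higher, where 8.71% were. Col6a1 was not among them, and the log2 fold change of Col1a1 was -1.48 (edgeR adjusted p 0.00242).

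The share of UMIs in other cell classes showed how far each gene was confined to fibroblast-like cells. Whether RNA counted in another class was made there was not tested. Fibroblast-like cells held 96.2% to 98.6% of all Col1a1 UMIs of the analysed cells in control libraries and 89.1% to 96.8% in expanded ones. Col6a3 was less confined, with 69.7% to 95.3% and 72.4% to 90.2%, and cluster 8 held 1.82% to 22.0% of it in control and 2.53% to 10.6% in expanded libraries. By contrast they held 28.1% to 54.6% of the Col12a1 UMIs in control and 27.7% to 58.4% in expanded libraries, and 44.7% to 92.0% and 50.7% to 79.0% of the Col23a1 UMIs.

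Melanocyte-like cells had the highest Col12a1 of any class. Among control libraries their level was 578 CPM in round 2 of day 1, 1013 and 1112 on day 2 and 746 on day 4, and it was 677, 792 and 542 CPM in the expanded libraries of day 1, round 2, day 2, round 2, and day 4. The range of the arms overlapped, and with 4 control and 3 expanded libraries of at least 20 cells no test was run. The class held 574 cells, and Col12a1 made up 44.4% to 47.7% of its UMIs of the 10 genes in those control libraries and 74.7% to 87.8% in the expanded ones. Most of the others were from Col1a1, Col1a2 and Col3a1 in control libraries (185 to 365, 180 to 502 and 157 to 585 CPM), which were at 15.2, 24.3 and 7.86 CPM or less in expanded ones. Col23a1 was at 0 to 5.29 CPM in control libraries. Schwann-like cells followed with 191 ± 17.6 CPM (SD, n = 4) of Col12a1 in control and 163 ± 63.2 CPM (SD, n = 5) in expanded libraries, and basal keratinocyte-like cells had 42.4 ± 17.8 CPM (SD, n = 5) and 44.7 ± 5.10 CPM (SD, n = 5). In basal keratinocyte-like cells the arm effect on Col12a1 was -0.03 (edgeR adjusted p 0.953), in a class where 12.9% of genes were called, 5.81% lower and 7.09% higher.

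Lymphatic endothelial-like cells carried Col23a1, at 61.04 and 57.5 CPM on day 1, 9.55 and 41.4 on day 2, and 46.8 on day 4, in control libraries, and at 80.5 and 53.9 CPM on day 1, 134 and 141 on day 2, and 200.2 on day 4 in expanded libraries. In 4 of 5 pairs the expanded library was higher, and the groups overlapped. Col23a1 rose there (log2 fold change 1.19 with SE 0.30, edgeR adjusted p 0.0205, 10.1% of genes called, 5.17% lower and 4.92% higher), and the call was lost without the control library of day 2, round 2, or either library of day 4. Blood endothelial-like cells had at most 4.87 CPM of Col23a1 in any library. Cluster 8 (2097 cells), which carried both fibroblast and dermal papilla markers and was left unnamed, had 126 ± 44.4 CPM (SD, n = 5) of it in control and 214 ± 42.9 CPM (SD, n = 5) in expanded libraries, without overlap and without passing (log2 fold change 0.67, edgeR adjusted p 0.0687).

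Smooth muscle-like cells, named by a marker list with Acta2 and Myh11, also held UMIs of type VI collagen. Rgs5 is in the pericyte list. When doublets were kept, the cluster named smooth muscle was led by Rgs5 and passed for all markers of both lists. At resolution 2, a cluster of 985 cells led by Rgs5 passed for both lists and was left unnamed, and 113 cells were named smooth muscle. The class may thus hold pericytes, possibly as most of its cells, and their part in its levels was not tested. Col6a3 was at 264 and 210.2 CPM on day 1, 184 and 191 on day 2, and 180.1 on day 4, in control libraries, and at 385 and 217 CPM on day 1, 409 and 476 on day 2, and 561 on day 4 in expanded libraries. Every pair was higher with expansion, with an overlap through the expanded library of day 1, round 2. It rose (log2 fold change 0.87, edgeR adjusted p 0.0220, 16.2% of genes called, 9.22% lower and 7.01% higher) and Col14a1 fell (-2.12, adjusted p 0.0334). The call of Col6a3 was lost without the control libraries of day 2, round 1 or 2, the expanded library of day 2, round 2, or either library of day 4, and 2 genes were higher without the control library of day 1, round 1, or the expanded library of day 1, round 2. That of Col14a1 was lost without the control library of day 1, round 2, the expanded library of day 2, round 1, the control library of day 2, round 2, or either library of day 4.

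**Figure D4:**
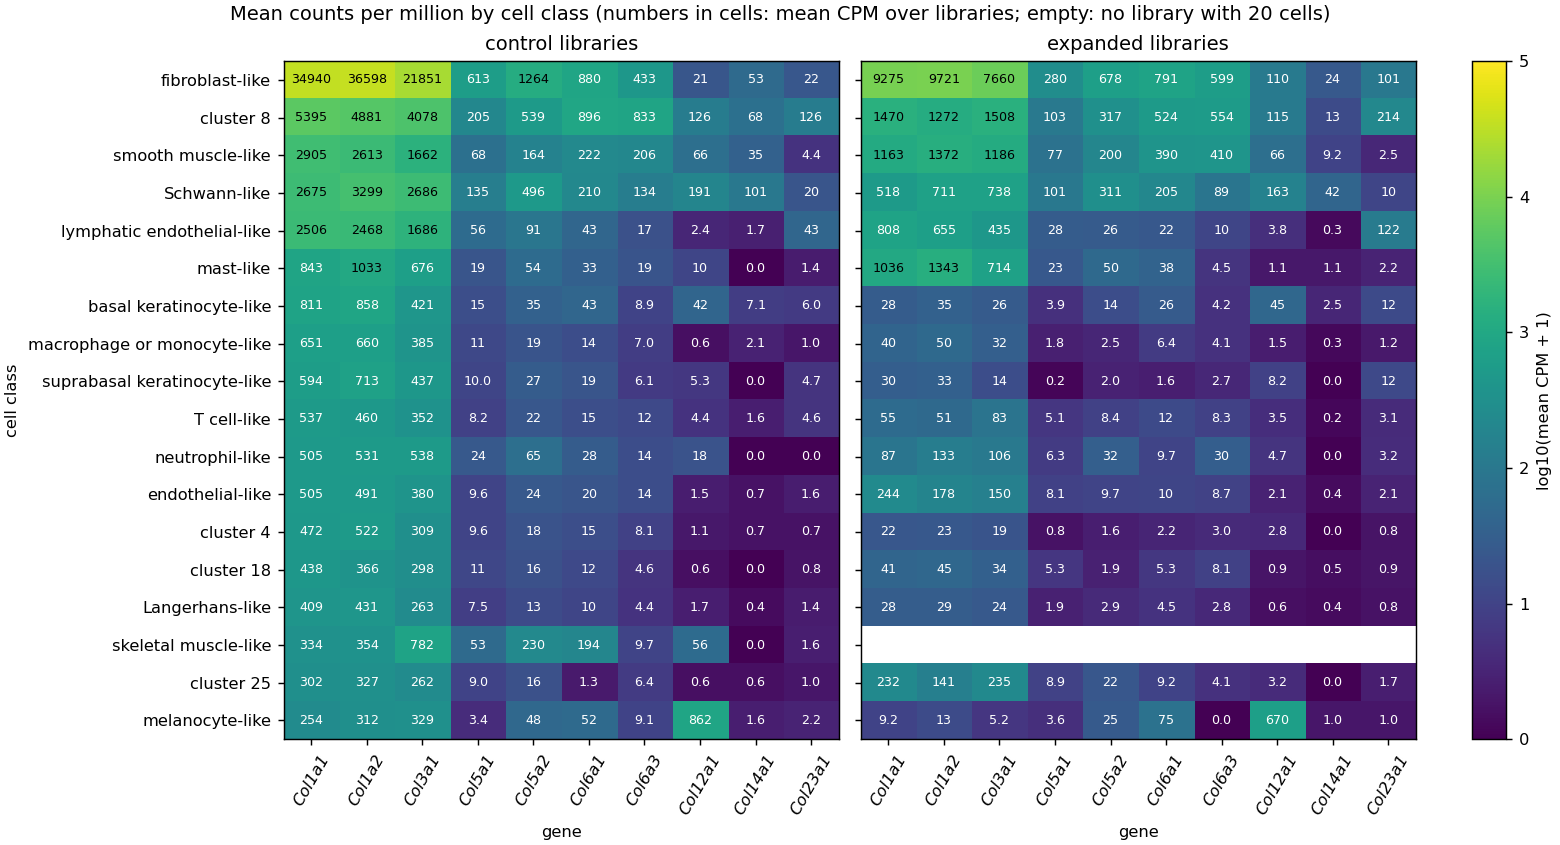
Mean level of each collagen gene in each cell class and arm (printed as CPM, shaded by log10 of CPM + 1). The fibril genes are found in all classes and are highest in fibroblast-like cells, while high Col12a1 is seen in melanocyte-like cells and Col23a1 in lymphatic endothelial-like cells, cluster 8 and fibroblast-like cells.

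The fibril genes appeared in every class, including immune cells. The 10 genes summed to 260 to 3839 CPM in control and 25.1 to 285 CPM in expanded macrophage or monocyte-like cells, and to 476 to 3242 and 8.6 to 255 CPM in Langerhans-like cells. Fibroblast-like cells had 48652 to 159200 CPM and 15917 to 56244 CPM. In T cell-like cells the median level of Col1a1 was 1.26% of the fibroblast level of the same library in control, and that of Dcn, a proteoglycan gene of fibroblasts, 1.68%. In macrophages those medians were 1.34% and 1.13%, and in Langerhans-like cells 0.59% and 0.74%. Col1a1, Col1a2 and Col3a1 took 28.5% to 40.5%, 31.2% to 41.9% and 18.1% to 31.3% of the UMIs of the 10 genes in control macrophages, and 29.8% to 37.6%, 31.9% to 41.4% and 18.9% to 29.0% in the fibroblasts of these libraries. In control macrophages the fibril genes thus came in nearly the proportions seen in fibroblasts of the same libraries. Expanded macrophages held few such UMIs, and the match varied. On day 1, round 1, the 3 genes had 135, 203 and 121 UMIs there and 364844, 415923 and 236978 in fibroblasts, in the same order of size. On day 2, round 2, they had 29, 52 and 24 UMIs against 15529, 16483 and 19592, so Col3a1 was lowest in macrophages and highest in fibroblasts.

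The arm test called these low levels too. In macrophage or monocyte-like cells 5 genes were lower, where 21.8% of genes were called, 12.3% lower and 9.48% higher, with log2 fold changes of -4.33 for Col1a1, -4.02 for Col1a2, -3.89 for Col3a1, -2.76 for Col5a1 and -2.80 for Col5a2. Langerhans-like cells had 4 lower (4.56% called, 3.09% lower and 1.47% higher) and T cell-like cells 3 lower (0.968% called, 0.807% lower and 0.161% higher), the latter with -3.85 for Col1a1, and with 1 lower gene without the expanded library of day 2, round 2. In basal keratinocyte-like cells 6 genes were lower, from -4.13 for Col1a1 to -0.85 for Col6a1, and without the expanded library of day 1, round 2, 3 were. All these log2 fold changes of Col1a1 were larger in size than the -2.27 of fibroblasts and nearer to the -3.26 of whole libraries.

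**Figure D5:**
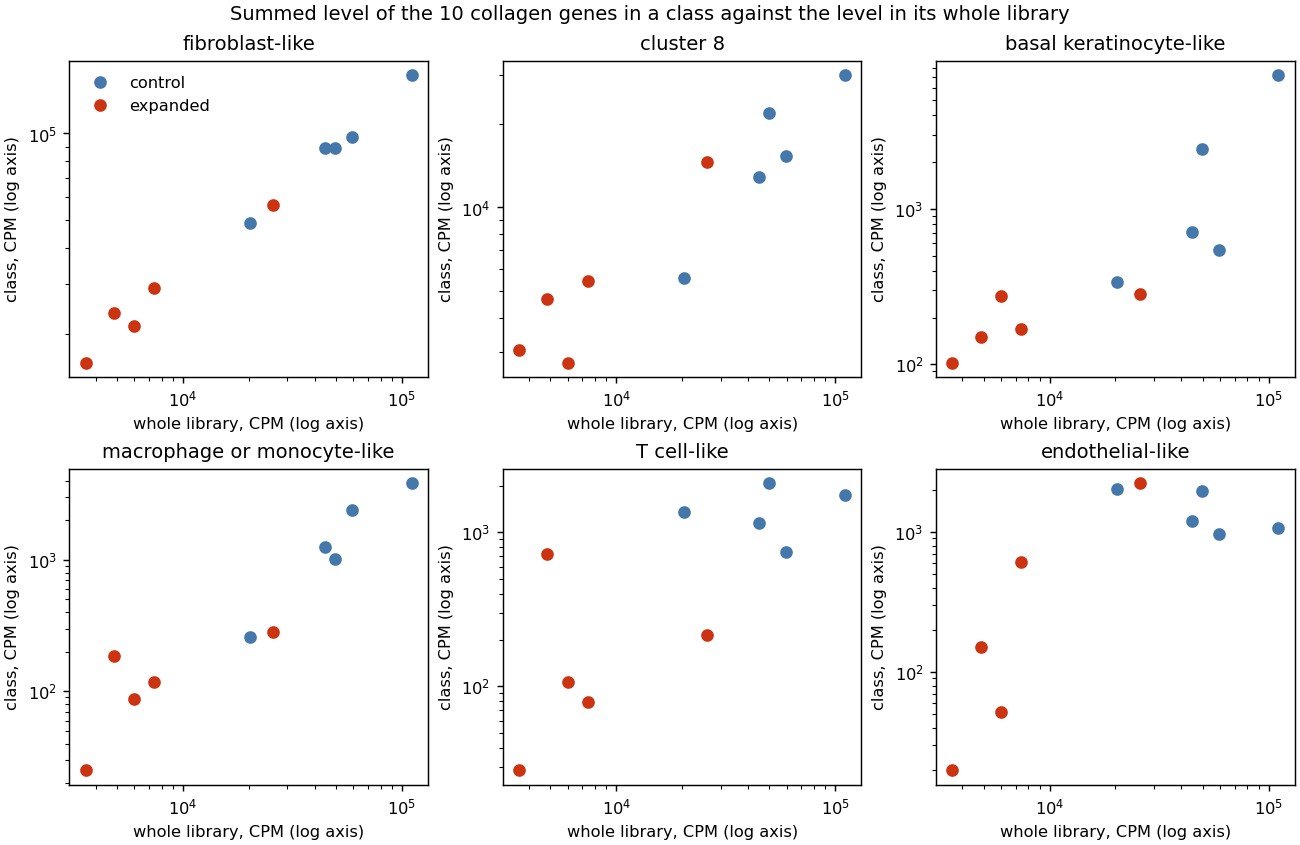
Summed level of the 10 collagen genes in each cell class (CPM, log axis) against the summed level in the whole library (CPM, log axis), 1 dot per library and class. Immune and keratinocyte classes lie far below fibroblast-like cells and mostly lower in the expanded libraries, whose whole-library sums run from 3605 to 25822 CPM against 20355 to 110705 CPM in control libraries.

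Stromal and vascular classes had calls that hung on single libraries. In cluster 8, 5 genes were lower (6.12% called, 2.79% lower and 3.33% higher): Col1a1 (log2 fold change -2.13), Col1a2 (-2.14), Col3a1 (-1.69), Col5a1 (-0.97, edgeR adjusted p 0.0492) and Col14a1 (-2.58). Without the expanded library of day 1, round 1, 8 were lower, and without the control library of day 2, round 2, 1 was higher. Lymphatic endothelial-like cells had 5 lower, led by Col1a2 at -3.22, with 3 without the expanded library of day 2, round 1, and 1 without the control library of day 2, round 2, or either library of day 4. In Schwann-like cells Col1a1 (-2.63, edgeR adjusted p 0.00911), Col1a2 (-2.30, adjusted p 0.0166) and Col3a1 (-2.14, adjusted p 0.0201) were lower where 0.342% of genes were called, 0.263% lower and 0.0789% higher. That count was 0 without the control library of day 1, round 2, or the expanded library of day 4, and 1 without the control library of day 2, round 2, or of day 4. Endothelial-like cells had Col1a2 lower (-2.71, edgeR adjusted p 0.0444, 11.4% called, 6.32% lower and 5.07% higher). There the count was 4 without the expanded and 3 without the control library of day 1, round 1, 2 without the control library of day 1, round 2, and 0 without any other library.

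Over whole libraries, 8 of the 10 genes fell and 1 rose, where edgeR called 25.2% of 17634 genes, 13.3% lower and 11.9% higher (2347 and 2090 genes, or 1583 and 3473 with scaling by total counts). In such sums, fewer fibroblasts and less RNA per cell cannot be told apart. Fibroblast-like cells gave 68.0%, 53.4%, 60.3%, 39.9% and 48.0% of the UMIs of the control libraries (day 1, rounds 1 and 2, day 2, rounds 1 and 2, and day 4) and 44.0%, 24.4%, 26.5%, 20% and 17.5% of those of the expanded ones. Col1a1 was at 41451 and 18003 CPM on day 1, 22373 and 6017 on day 2, and 15691 on day 4, in control libraries, and at 8837 and 2410.04 CPM on day 1, 1688 and 860.1 on day 2, and 1459.8 on day 4 in expanded libraries, with an overlap through the expanded library of day 1, round 1 (log2 fold change -3.26 with SE 0.54, edgeR adjusted p 0.00408). Col3a1 had -2.74 (adjusted p 0.00279), Col5a2 -2.03 (adjusted p 0.00214) and Col14a1 -2.29 (adjusted p 0.00176).

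Col6a3, higher in each expanded fibroblast sum than in its pair, was lower over whole libraries (275 against 181 CPM, log2 fold change -0.79, edgeR adjusted p 0.0171). This call was lost without the control library of day 4 (adjusted p 0.0726) or the expanded one (adjusted p 0.0786). Col23a1 rose while the fibroblast share was smaller, from 11.1 and 19.4 CPM on day 1, 16.4 and 23.2 on day 2, and 22.6 on day 4 in control to 36.1 and 29.03 CPM on day 1, 35.3 and 42.9 on day 2, and 45.8 on day 4 in expanded libraries. The groups did not overlap (log2 fold change 0.86 with SE 0.13, edgeR adjusted p 0.00308). Col12a1 did not pass, with 28.1 and 49.6 CPM on average (log2 fold change 0.57, adjusted p 0.114), but did with the pair of day and round as a block (0.61, adjusted p 0.0343) and without the control library of day 1, round 2 (0.80, adjusted p 0.0320).

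Across 84 sums of a fibroblast subset in a library, the levels of the 10 genes fell into blocks. On the scale of log2 of CPM + 1, Pearson's r was 0.989 for Col1a1 with Col1a2, 0.905 for Col1a1 with Col3a1 and 0.752 for Col6a1 with Col6a3. Col12a1 went with Col6a3 (0.626) and against Col1a1 (-0.602), and Col23a1 went against Col1a1 (-0.513). The genes whose level was most like the average of the 10, among 5512 genes compared, were Fbln1 (r 0.676), Igfbp3 (0.661), Dpt (0.648), Ppfibp1 (0.644), Wls (0.640), Mrc2 (0.628), Hmcn1 (0.610) and Cd109 (0.608). The levels were averaged over the 10 genes as log2 values, and genes of any collagen were left out of this search. These sums share libraries, arms and subsets, so the values describe them and carry no test.

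Genes that make, process and degrade collagen were read in the same fit of fibroblast-like cells, from lists chosen with earlier results known. In that fit, 16.8% of all genes tested were called lower and 15.5% higher. For each list up to 3 called genes that moved alike in all 5 pairs are named. Postn, Ddr2, Col7a1 and Col6a2 fall outside this rule and were chosen after their values were seen. Of 20 genes for folding and export, all tested, 12 fell and 0 rose (median log2 fold change -0.54, against 0.02 over all genes). They include P4ha2, a prolyl hydroxylase subunit (-1.90), Creb3l1, a transcription factor of secretory load (-1.54), and Serpinh1, the collagen chaperone (-1.27). Of 11 tested genes for cleavage of procollagen and crosslinking, 7 fell and 0 rose (median -0.70), with Pcolce2, an enhancer of C-propeptide cleavage, at -2.35 and the lysyl oxidases Loxl4 and Loxl2 at -1.11 each. Of 11 tested partners of fibrils, 8 fell and 1 rose (median -1.13): Fn1, fibronectin, fell by 1.79, Sparc by 1.62 and Tnxb, tenascin X, by 1.60 on the log2 scale, while Postn, periostin, rose by 0.75.

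Breakdown and uptake genes were split, with 5 of 11 tested higher and 3 lower (median -0.09). The counts of this and the following lists stand beside 15.5% of all genes called higher and 16.8% lower. Mmp13, a collagenase, was at 1.10 ± 0.692 and 20.6 ± 25.4 CPM (SD, n = 5) in control and expanded libraries and rose by 3.25, Timp1, an inhibitor of these proteases, rose by 2.70, and Mrc2, an uptake receptor for collagen, fell by 1.63 on the log2 scale. Of 7 collagen receptor genes, all tested, 1 rose (Itga1, by 1.57) and 1 fell (Ddr2, -0.38, lower in 4 of 5 pairs). Among the collagens not followed here, 2 of 4 tested fibrillar genes rose, with Col27a1 at 1.94 and Col11a1 at 0.76. Of 10 tested basement membrane and network collagens 5 fell and 1 rose (median -0.52), among them Col4a3 (-3.25), Col4a4 (-2.61) and Col4a5 (-2.12) lower and Col7a1, the anchoring fibril chain, higher (0.81). The other type VI genes include Col6a6 (-4.28) and Col6a5 (-4.02), which fell, and Col6a2 (-0.28, edgeR adjusted p 0.0863), which did not pass. The largest of these falls were in scarce genes. Means in control and expanded libraries were 4.34 and 0.216 CPM for Col6a6, 8.82 and 0.461 CPM for Col6a5, and 2.65 and 0.288 CPM for Col4a3. Of 6 tested FACIT and membrane collagens 1 fell, Col16a1 (-0.66), and 0 rose.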

How the data were processed

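Per the file headers, the authors made the deposited UMI counts with Cell Ranger 6.1.2; per the submitters' processing notes the build was mm10. The counts carry no normalization. Cells needed 200 genes and 500 UMIs, with mitochondrial UMIs of 10% or less, which 47251 of 55174 barcodes met, and 1763 doublets (Scrublet, or several hashtags) were removed. Cells were clustered with scanpy 1.11.5 and leidenalg 0.10.2 (Python 3.11.15) on log-normalized counts of variable genes without the 10 collagen genes, with 30 principal components, 15 neighbours and resolution 1 (subsets: 20 components and resolution 0.4), and clusters were named by marker lists, so differences from another annotation may come from rebuilt names. Of 16443 fibroblast-like cells, 12792 were control and 3651 expanded. HTODemux (Seurat 5.3.0, quantile 0.99) separated the mice.

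Counts were summed per library over at least 20 cells and tested with edgeR 4.0.16 (R 4.3.3): filterByExpr, TMM scaling, quasi-likelihood test of the arm with day as covariate, Benjamini-Hochberg adjustment over all genes tested, threshold 0.05. Classes needed 4 and subsets 3 libraries per arm. Alternatives were other size factors, total counts, no filter on low counts, DESeq2 1.42.0, the pair of day and round as a block, thinning to 2000 UMIs, mice as replicates, other clusterings and cell filters, and leaving out each library. Rounds pair the libraries per the labels. Deviations from group means of paired libraries correlated at r 0.343 (day 1) and 0.108 (day 2) over 14093 genes. On simulated data for the arm effect in fibroblast-like cells (13816 genes), 61% of log2 changes of 1 and 91.8% of changes of 2 were recovered, with 6.79% of calls false. Members and lists were chosen with earlier results of these data known. All 10 genes were named in each comparison, and pathway genes by the rule given with them. Shares of cells are subject to counting error also. Promoters are from RefSeq. The 8 hashing samples hold antibody lists only.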

Additional observations from a re-analysis of the deposited data

Results flagged for a closer look

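In fibroblast-like cells, the Col12a1 level of the expanded day 4 library, 296 CPM, lay far from those of the other expanded libraries (32.7 to 74.9 CPM). Its 4 hashed mice ran from 107 to 301 CPM. The Col23a1 level of the control library of day 1, round 1, 11.8 CPM, lay far below the other controls (23.2 to 26.0 CPM). Such a gap was looked for in 20 groups of 5 libraries and found in these 2, where chance gives about 1 in 20.

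Col6a3 differed in direction between fibroblast subsets. Its log2 fold change was 0.94 in subset 3, higher with expansion in 5 of 5 pairs, and -0.45 in subset 4, higher in 0 of 4 pairs. The difference between the subsets was not tested.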

How the results depend on the processing

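No gene changed direction with a call under any alternative run. In fibroblast-like cells, leaving out single libraries gave 6 to 7 genes lower and 2 higher, and in whole libraries 7 to 8 lower and 1 to 2 higher. By subset the ranges were 2 to 4 lower and 0 to 1 higher (subset 2), 3 to 5 and 2 to 3 (subset 3), 0 to 1 and 0 to 1 (subset 4), 0 to 3 lower (subset 7), 3 to 6 lower (subset 10) and 0 (subset 11). By class they were 4 to 8 lower and 0 to 1 higher (cluster 8), 0 to 1 and 0 to 2 (smooth muscle), 0 to 3 lower (Schwann), 0 to 4 lower (endothelial), 1 to 6 lower and 0 to 1 higher (lymphatic endothelial), 3 to 8 and 0 to 1 (basal keratinocyte), 5 to 6 lower (macrophage), 1 to 3 lower (T cell) and 3 to 4 lower (Langerhans). With the replicate block, whole libraries had 2 higher, subset 11 had 2 lower, subset 4 had 4 lower and 1 higher, cluster 8 had 1 higher and endothelial cells had 4 lower. The block changed no call of the 10 genes in fibroblast-like cells as a whole. With relative log expression factors, subset 2 had 0 higher, subset 7 had 2 lower and endothelial cells 2 lower. Without a filter on low counts, cluster 8 had 8 lower and 1 higher, smooth muscle 3 lower and 2 higher, Schwann cells 6 lower, endothelial cells 5 lower, basal keratinocytes 1 higher and T cells 5 lower. DESeq2 gave 1 higher in cluster 8 and 4 lower in endothelial cells, total counts 2 higher in smooth muscle, and thinning 0 lower in smooth muscle and 3 lower in endothelial cells. The cause of these moves was not tested. Genes called in fibroblast-like cells numbered 4553, against 2562 after thinning and 2396 in subsets 2, 3 and 4 only. The block moved them from 1064 to 1738 in subset 2, 34 to 234 in subset 4, 212 to 475 in subset 7, 12 to 78 in subset 11, 84 to 139 in T cells and 26 to 150 in Schwann cells. Relative log expression factors gave 18 in subset 4. Thinning gave 299 in place of 535 genes in cluster 8, 593 in place of 1398 in smooth muscle, 402 in place of 1193 in endothelial, 272 in place of 765 in lymphatic endothelial, 360 in place of 1532 in basal keratinocyte, 1498 in place of 2454 in macrophage, 47 in place of 84 in T and 123 in place of 366 in Langerhans-like cells. No filter gave 902 in cluster 8, 254 in Schwann, 1800 in endothelial, 498 in T and 1114 in Langerhans-like cells, and DESeq2 53 in Schwann, 164 in T and 603 in Langerhans-like cells. Total counts turned the higher and lower genes from 118 and 248 to 289 and 111 in Langerhans, from 531 and 662 to 851 and 471 in endothelial, from 373 and 392 to 519 and 302 in lymphatic endothelial, from 1067 and 1387 to 1376 and 1085 in macrophage, from 604 and 794 to 952 and 627 in smooth muscle and from 14 and 70 to 29 and 43 in T cell-like cells. Arm by day gave 0, 2 after thinning and 3 with mice. The arm effect at day 1 gave 981 genes and 545 with mice, at day 2 635, 311 after thinning and 3031 with mice, and at day 4 28, 10 with relative log expression factors, 132 after thinning and 2253 with mice. Depth limits Col12a1, Col14a1 and Col23a1 within subsets, where sums often hold under 50 UMIs, and day 4 rests on 1 library per arm.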
